A study of Mus musculus with 12 samples.

Results

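The 10 genes described here encode core proteins of the piRNA pathway: the PIWI proteins Piwil1, Piwil2 and Piwil4, the Tudor-domain proteins Tdrd1, Tdrd5, Tdrd6 and Tdrd9, the helicase Mov10l1, and the scaffold or nuage proteins Mael and Asz1. They were listed by name, with earlier results of these data known. All 10 had exactly 1 probe set with a single gene symbol in the array's annotation, out of 22180 genes measured in that way. Signals were read on 12 Affymetrix arrays, with biotin-labelled cDNA made from 100 ng of total RNA by the WT Plus kit, from mouse embryonic stem cells in 4 groups of 3 samples. All groups carried a tdTomato reporter driven by MERVL, an endogenous retrovirus active in 2-cell embryos, and grew on gelatin in serum-replacement medium with LIF. The parental group held the unmodified reporter cells, and in the KO group Dppa2 and Dppa4, a pair of chromatin proteins of early embryos, had been knocked out. The KO+WT group was KO cells transfected with wild-type Dppa2 and Dppa4 as GFP fusions, and the KO+Mut group was KO cells transfected with SUMO-deficient Dppa2 and Dppa4 GFP fusions. Cells of both add-back groups were sorted by GFP, and for parental and KO cells the labels mention no sort. In comparisons of an add-back with KO or parental cells, the added proteins therefore cannot be told apart from transfection and sorting. The sources used here do not say whether the KO cells were 1 clone. The arrays of a group are called biological replicates, with nothing said of separate cultures, so the p-values measure the spread between these samples.

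piRNAs are small RNAs of the germline that guide PIWI proteins to transposon transcripts, which are cut or silenced by DNA methylation. In mouse male germ cells, long precursor RNAs are unwound and processed at mitochondria and in nuage granules, where Tudor-domain proteins bind methylated arginines of the PIWI proteins. Most genes of the pathway are germline genes whose promoters are kept silent in somatic cells by DNA methylation and by repressor complexes that include E-box-binding factors. Embryonic stem cells are known to transcribe some of them at a low level.

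Promoter sequences are shown first, printed for 5 members with the patterns named below. The windows of Piwil1, Piwil4 and Tdrd5 were searched in the same way but are not printed. RefSeq's promoter table (build GRCm38.p6) held 8 of the 10 genes, all but Piwil2 and Tdrd6. In the 250 bases before the first-listed start, 5 of these 8 contained the E-box CACGTG, which reads the same on both strands: Piwil1 and Tdrd9 with 2 copies each, and Tdrd1, Mov10l1 and Mael with 1 copy each. Of 27025 promoters of the same length, 6.05% contained it. The E2F-type motif TTCCCGC, searched on both strands, was present in 1 of the 8, at the far end of the Tdrd5 window, and in 3.84% of all promoters. The number of CpG dinucleotides lay between 8 (Tdrd9) and 40 (Tdrd5), against a median of 6 over all promoters. Both motifs hold a CpG, and their shares over all promoters were not matched for CpG number. A match describes the letters only. The windows of Mov10l1 (chr15:88982744-88982993, plus strand), Tdrd9 (chr12:111971309-111971558, plus strand), Tdrd1 (chr19:56825959-56826208, plus strand; its table lists 3 starts), Mael (chr1:166238745-166238994, minus strand) and Asz1 (chr6:18109062-18109311, minus strand) follow, 5′ to 3′, with CACGTG in capitals. They stand for 3 kinds of pattern described below: a gene low in KO cells and high with add-back, genes highest with add-back, and genes highest in parental cells.
Mov10l1: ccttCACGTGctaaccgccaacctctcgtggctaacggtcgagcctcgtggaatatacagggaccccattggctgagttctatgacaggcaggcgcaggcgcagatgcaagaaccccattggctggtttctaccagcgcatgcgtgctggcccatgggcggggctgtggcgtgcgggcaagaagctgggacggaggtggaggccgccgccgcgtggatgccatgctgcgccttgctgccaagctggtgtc
Tdrd9: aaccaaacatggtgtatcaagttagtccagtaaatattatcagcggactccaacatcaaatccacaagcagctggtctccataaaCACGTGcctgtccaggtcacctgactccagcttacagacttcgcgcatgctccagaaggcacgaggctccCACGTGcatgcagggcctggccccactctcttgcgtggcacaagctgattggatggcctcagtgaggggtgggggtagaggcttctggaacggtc
Tdrd1: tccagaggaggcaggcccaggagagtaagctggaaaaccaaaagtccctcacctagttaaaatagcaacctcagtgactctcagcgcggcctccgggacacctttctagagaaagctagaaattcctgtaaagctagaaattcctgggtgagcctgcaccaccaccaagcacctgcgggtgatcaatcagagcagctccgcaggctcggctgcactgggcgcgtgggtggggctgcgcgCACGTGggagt
Mael: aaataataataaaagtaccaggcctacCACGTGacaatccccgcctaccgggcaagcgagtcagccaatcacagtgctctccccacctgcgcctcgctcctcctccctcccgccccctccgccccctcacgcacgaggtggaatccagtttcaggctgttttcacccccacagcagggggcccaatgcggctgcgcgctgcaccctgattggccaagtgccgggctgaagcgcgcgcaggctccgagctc
Asz1: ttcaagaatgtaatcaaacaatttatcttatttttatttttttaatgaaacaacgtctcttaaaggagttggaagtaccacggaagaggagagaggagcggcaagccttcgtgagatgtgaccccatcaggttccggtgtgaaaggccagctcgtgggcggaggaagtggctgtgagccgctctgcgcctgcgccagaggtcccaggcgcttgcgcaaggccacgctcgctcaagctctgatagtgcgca
In Mov10l1 the E-box began 246 bases before the start, in Mael 223, in Tdrd9 165 and 95, and in Tdrd1 11. Asz1 and Piwil4 had neither motif in their windows, and Tdrd5 had no CACGTG. Piwil1 had its copies 179 and 154 bases before the start. Its signal is given further on with the members that stayed under the threshold throughout. Members with and without a call between groups thus held an E-box. Piwil4, Tdrd5 and Asz1, without an E-box, had no call in the main fit, and Tdrd6, which had calls, had no promoter listed. Piwil4 had 2 listed starts, of which only the first was searched. A link between motif and call was not tested.

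The arrays were alike in range, with medians between 3.73 and 3.88 (log2) and correlations of 0.976 to 0.994 among the 66 pairs of arrays. The 10 stem cell markers averaged between 8.57 and 8.82 on every array. The Dppa2 signal was 8.13 to 8.69 in KO cells, 9.35 to 10.17 in parental cells, and 10.79 to 11.34 in the add-backs. Dppa2 fell by 1.29 in KO cells (limma adjusted p = 0.0259). That call was lost on leaving out parental replicate 2 or 3 (0.131 or 0.139) or KO replicate 1, 2 or 3 (0.112, 0.068 or 0.0669). Dppa4 differed by -0.84 (adjusted p = 0.102), and both genes kept a signal in KO cells. Where the probes lie in relation to the deletion is not stated in those sources. Both genes stood above parental cells with add-back. Dppa2 did so by 1.31 (wild-type) and 1.42 (mutant; limma adjusted p = 0.0154 and 0.00529). Dppa4 did so by 1.93 and 2.08 (adjusted p = 0.000253 and 9.05e-05). Leaving out 1 array kept the Dppa2 wild-type call in 2 of 6 fits and the other calls over parental cells in all 6. Among markers of other cells, those of 2-cell-like cells moved with the groups: the mean of the 9 measured was 3.43 to 4.11 on parental arrays and 2.46 to 2.66 on KO arrays, but reached 6.09 to 7.88 under wild-type and 7.38 to 8.37 under mutant add-back. The mean of 11 germ cell markers, 2 of which are also in the wider piRNA list below, was 5.98 to 6.08, 5.44 to 5.60, 5.82 to 5.95 and 5.73 to 5.95 in the same order; 3 of the 11 fell in KO cells, 7 of 11 differences were below 0 and the median was -0.07. The mean of 6 primordial germ cell markers was 5.32 to 5.44, 5.13 to 5.44, 5.02 to 5.13 and 4.76 to 5.09; under mutant add-back all 6 differences from KO and from parental cells were below 0, with 1 and 0 called. That of 8 primitive endoderm markers was 6.62 to 7.37 in parental cells and between 5.91 and 6.43 in all other groups. The mean of 8 fibroblast markers was 4.08 to 4.12 (parental), 3.92 to 3.96 (KO), 4.01 to 4.20 (KO+WT) and 4.09 to 4.21 (KO+Mut). All 8 differed below 0 in KO cells, with 0 called. The mean of 7 trophectoderm markers was 4.74 to 5.02, 4.58 to 4.92, 4.55 to 4.89 and 4.50 to 4.84. Of the 11 germ cell markers, 2 were called higher in each add-back than in KO cells, and 1 lower than in parental cells. None of these markers had a value of 0. The part of such cells in the differences below was not tested, and in bulk RNA a change in the number of cells of a type and a change in RNA per cell cannot be told apart.

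Mov10l1 encodes the RNA helicase that feeds piRNA precursors to the processing machinery. On the log2 scale, parental replicates 1, 2 and 3 gave 6.10, 5.93 and 5.91, and the KO replicates 5.30, 4.93 and 5.35. With wild-type add-back it was 6.52, 6.33 and 5.80, and with mutant add-back 6.36, 6.35 and 5.93. All 3 KO arrays lay below every array of the other groups, while the parental and add-back arrays overlapped. Mov10l1 rose with wild-type add-back by 1.03 (SE 0.19, n = 3 arrays per group, 2.04-fold with a 95% interval of 1.54 to 2.71, limma adjusted p = 0.024). It rose with mutant add-back by 1.02 (SE 0.19, 2.03-fold, adjusted p = 0.0172). The KO difference from parental cells, -0.79 (SE 0.19, 95% interval -1.20 to -0.38), did not pass (adjusted p = 0.167), and neither add-back differed from parental cells beyond its interval (0.24 for both, adjusted p = 0.706 and 0.708). The wild-type call was kept without KO+WT replicate 3 (0.00655) and lost without KO replicates 1, 2 and 3 (0.058, 0.106 and 0.0562) and KO+WT replicates 1 and 2 (0.0804 and 0.0994). The mutant call was lost without KO replicate 2 (0.0838) and KO+Mut replicates 1 and 2 (0.0754 and 0.0955). The wild-type call was also lost when the 6 arrays of those groups were fitted alone (adjusted p = 0.114).

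Tdrd6 and Tdrd9 had another order of groups. Tdrd6 encodes a large Tudor protein of the chromatoid body of spermatids. Its signal was 3.03, 2.76 and 2.65 in parental cells and 3.05, 2.62 and 2.78 in KO cells, which overlapped. It was 3.83, 3.46 and 3.40 under wild-type and 3.58, 3.89 and 3.65 under mutant add-back, so that all 6 add-back arrays lay above all 6 others. As a guide to background, the mean signals of 1394 olfactory and vomeronasal receptor genes, which stem cells are not known to use, had a median of 1.65 and a 95th percentile of 3.54. All parental and KO arrays of Tdrd6, and replicates 2 and 3 of KO+WT, lay below 3.54, so its starting level was not above that limit and no fold is given. Tdrd6 rose with mutant add-back by 0.89 over KO cells (SE 0.16, limma adjusted p = 0.0145) and stood 0.90 above parental cells (SE 0.16, adjusted p = 0.0179). With wild-type add-back the differences of 0.75 from KO and 0.75 from parental cells (SE 0.16) did not pass (adjusted p = 0.0537 and 0.0674), and between KO and parental cells the difference was 0.00 (95% interval -0.35 to 0.35). With the replicate number as a block, the wild-type difference from parental cells passed (adjusted p = 0.0283). The mutant call over KO was lost without KO replicates 2 and 3 (0.0734 and 0.0597) and KO+Mut replicate 2 (0.0898), and the call over parental cells without parental replicates 2 and 3 (0.0843 and 0.0908) and KO+Mut replicates 2 and 3 (0.107 and 0.0527).

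Tdrd9 encodes a Tudor-domain helicase that works with Piwil4 in fetal germ cells. Its signal was 3.08, 3.26 and 3.00 in parental and 3.25, 3.32 and 3.13 in KO cells. It was 3.65, 3.69 and 3.68 under wild-type and 3.74, 3.94 and 3.58 under mutant add-back, again with all 6 add-back arrays above all 6 others. The parental and KO arrays lay below the receptor genes' 95th percentile of 3.54 and the add-back arrays above it, so no fold is given here either. Tdrd9 stood 0.64 above parental cells with mutant add-back (SE 0.12, limma adjusted p = 0.027). Its differences were 0.56 for wild-type add-back from parental cells (adjusted p = 0.0732, and 0.0181 with the replicate block), 0.52 for mutant and 0.44 for wild-type add-back from KO cells (adjusted p = 0.0673 and 0.149), and 0.12 for KO from parental cells. The call was lost on leaving out parental replicate 1 or 3 (0.101 or 0.128) or KO+Mut replicate 1 or 2 (0.0746 or 0.137), and when the 6 arrays were fitted alone (0.0976).

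Tdrd1, a Tudor scaffold that binds Piwil2, gave 3.75, 3.79 and 3.63 in parental and 3.67, 3.30 and 3.69 in KO cells. It gave 4.24, 4.32 and 3.51 under wild-type and 3.87, 4.16 and 4.02 under mutant add-back. The mutant arrays lay above all KO and parental arrays, whereas KO+WT replicate 3 lay within the KO range. The differences from KO cells of 0.47 (95% interval 0.05 to 0.89) and 0.46 (0.05 to 0.88) did not pass (limma adjusted p = 0.357 and 0.345). Over the 6 fits that left out 1 array, the wild-type difference was 0.32 to 0.73 (limma adjusted p from 0.0549 to 0.593, 0 called). The highest value was that without KO+WT replicate 3. Probe sets differ in response, so the receptor genes give only a rough limit, and signals do not order the members by transcript number.

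**Figure D1:**
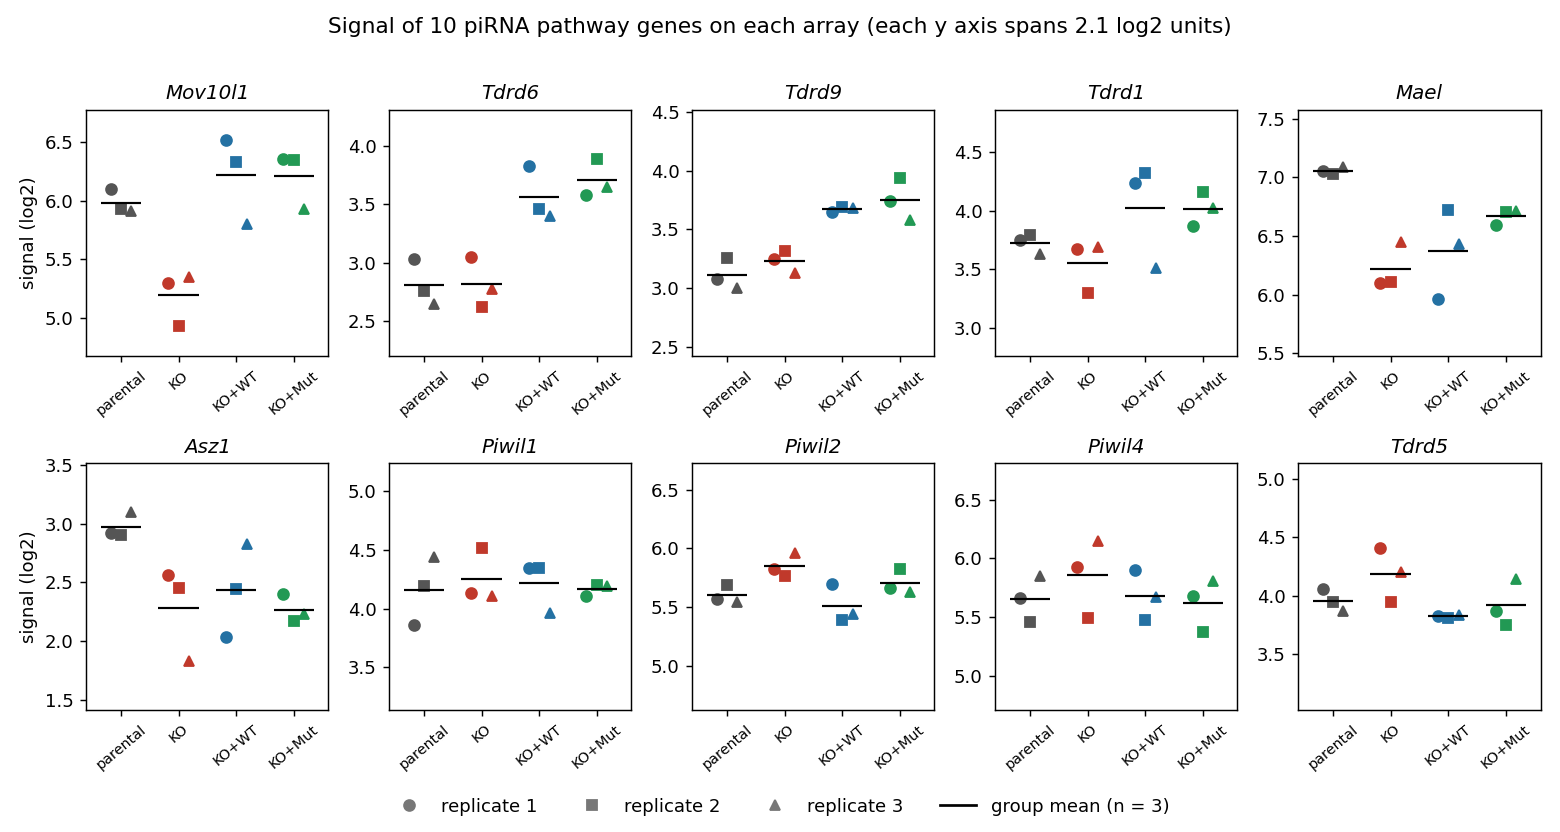
Signal (log2, y axis) of the 10 piRNA pathway genes on each of 12 arrays by group (x axis), with replicates 1, 2 and 3 as circle, square and triangle and the group mean as a line; every panel spans the same number of log2 units. Mov10l1 is lowest on the KO arrays (4.93 to 5.35), Tdrd6 and Tdrd9 are higher on all add-back arrays than on all others, and Mael and Asz1 are highest on the parental arrays.

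Mael and Asz1 had their highest signals on the parental arrays, Asz1 within the range of the receptor genes. Mael, a nuage protein needed for transposon silencing, gave 7.05, 7.03 and 7.09 in parental cells and 6.10, 6.11 and 6.45 in KO cells. It gave 5.96, 6.72 and 6.43 under wild-type and 6.59, 6.70 and 6.71 under mutant add-back. No array of the other 3 groups reached the parental range, and KO+WT replicate 1 lay below all KO arrays. The KO difference of -0.84 (SE 0.17, 95% interval -1.21 to -0.47) did not pass (limma adjusted p = 0.0856), but did with the replicate number as a block (adjusted p = 0.0445). From parental cells Mael differed by -0.69 in KO+WT and -0.39 in KO+Mut (adjusted p = 0.119 and 0.401), and from KO cells by 0.15 and 0.45 (adjusted p = 0.777 and 0.283).

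Asz1, an ankyrin-repeat protein that anchors piRNA processing at mitochondria, gave 2.92, 2.90 and 3.10 in parental cells and 2.56, 2.45 and 1.83 in KO cells. It gave 2.03, 2.44 and 2.83 under wild-type and 2.40, 2.17 and 2.23 under mutant add-back. All 9 arrays of the other groups lay below the parental ones, and KO and both add-back groups overlapped. Its differences from parental cells were -0.69 in KO, -0.54 in KO+WT and -0.71 in KO+Mut (SE 0.21 each, limma adjusted p = 0.375, 0.371 and 0.177). Without KO+WT replicate 1 the KO+WT difference was -0.34. From KO cells the add-backs differed by 0.15 and -0.02, with 95% intervals of -0.30 to 0.60 and -0.47 to 0.44. All 12 arrays of Asz1 lay below the receptor genes' 95th percentile of 3.54, so its signal was not above that limit in any group, and its differences have that limit.

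The 3 PIWI genes and Tdrd5 passed the threshold in none of the 6 comparisons under limma. Piwil2, which loads primary piRNAs and is the PIWI gene best known outside germ cells, gave 5.54 to 5.69 in parental, 5.76 to 5.96 in KO, 5.39 to 5.70 in KO+WT and 5.63 to 5.82 in KO+Mut cells. Its KO arrays lay above the parental and the wild-type add-back arrays, by 0.24 and 0.34 on average (limma adjusted p = 0.771 and 0.281). Piwil4, the nuclear PIWI protein that directs DNA methylation in fetal germ cells, ranged from 5.37 to 6.15 over all 12 arrays with every pair of groups overlapping. Piwil1, the PIWI protein of spermatocytes and spermatids, ranged from 3.86 to 4.52, also with all groups overlapping. Their group means differed by at most 0.24 and 0.09. Tdrd5, a Tudor protein needed for nuage assembly, gave 3.87 to 4.06 in parental, 3.95 to 4.41 in KO, 3.81 to 3.84 in KO+WT and 3.75 to 4.14 in KO+Mut cells. The wild-type add-back arrays of Tdrd5 lay below all parental and KO arrays, with differences of -0.13 and -0.36 (adjusted p = 0.801 and 0.325).

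Counted over the list, loss of Dppa2 and Dppa4 gave no call among the 10 genes, against 0.239% of all 22180 genes called (53, by limma at adjusted p under 0.05; 0.0361% higher and 0.203% lower). At an unadjusted p under 0.05, 3 of 10 passed (Mov10l1, Mael and Asz1) against 6.94% of all genes. The list was chosen with earlier results of these data known, so such counts here and below are a description. The KO and parental arrays did not overlap for those 3 genes, lower in KO, and for Piwil2, higher in KO. Of all genes, 6.83% were lower and 6.11% higher without overlap. The median difference of the 10 genes was 0.04 against 0.00 for all genes, with 4 of 10 differences below 0. The mean signal of the 10 genes was 4.25 to 4.42 on the KO arrays and 4.50 to 4.51 on the parental arrays. With the replicate block 1 of 10 fell (Mael), against 0.618% of all genes called.

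Adding back the wild-type proteins gave 1 rise (Mov10l1) and 9 genes that did not pass, against 0.83% of all genes called (184, of which 162, or 0.73% of genes, rose and 0.0992% fell; centring each array on its median gave 112 rises and 37 falls, 75.2% rises against 88.0%). At an unadjusted p under 0.05, 6 of 10 passed against 2662 of all genes (12%), and the median difference of the 10 genes was 0.15. Adding back the mutant proteins gave 2 rises (Mov10l1 and Tdrd6) and 8 genes that did not pass, against 1.27% of all genes called (282, of which 248, or 1.12% of genes, rose and 0.153% fell; 194 rises and 72 falls after centring, 72.9% rises against 87.9%). At an unadjusted p under 0.05, 5 of 10 passed against 12.5%, and the median was 0.22. Without overlap, 3 of 10 genes were higher with wild-type add-back (Mov10l1, Tdrd6 and Tdrd9, against 8.61% of all genes) and 2 lower (Piwil2 and Tdrd5, against 7.43%). With mutant add-back 5 were higher (those 3, Tdrd1 and Mael, against 9.24% of all genes) and 0 lower (8.77%). Both comparisons share the KO arrays, and both set transfected and sorted cells against cells for which no sort is mentioned.

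Of the comparisons with parental cells, wild-type add-back gave no call by limma among the 10, with 4 of 10 at an unadjusted p under 0.05 against 10.7% of all genes. Of all genes 0.55% were called (122; 0.32% higher and 0.23% lower, with 58.2% of calls higher, 48.8% after centring). Without overlap, 2 of 10 were higher (Tdrd6 and Tdrd9, against 8.05% of all genes) and 3 lower (Mael, Asz1 and Tdrd5, against 7.8%). With the replicate block Tdrd6 and Tdrd9 passed, against 2.06% of all genes. Mutant add-back gave 2 calls (Tdrd6 and Tdrd9, both higher), against 0.992% of all genes (220; 0.654% higher and 0.338% lower, with 65.9% of calls higher, 52.8% after centring). At an unadjusted p under 0.05, 4 of 10 passed against 11.5%. Without overlap, 3 of 10 were higher (Tdrd6, Tdrd9 and Tdrd1, against 8.63% of all genes) and 2 lower (Mael and Asz1, against 9.38%). These comparisons share the parental arrays.

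**Figure D2:**
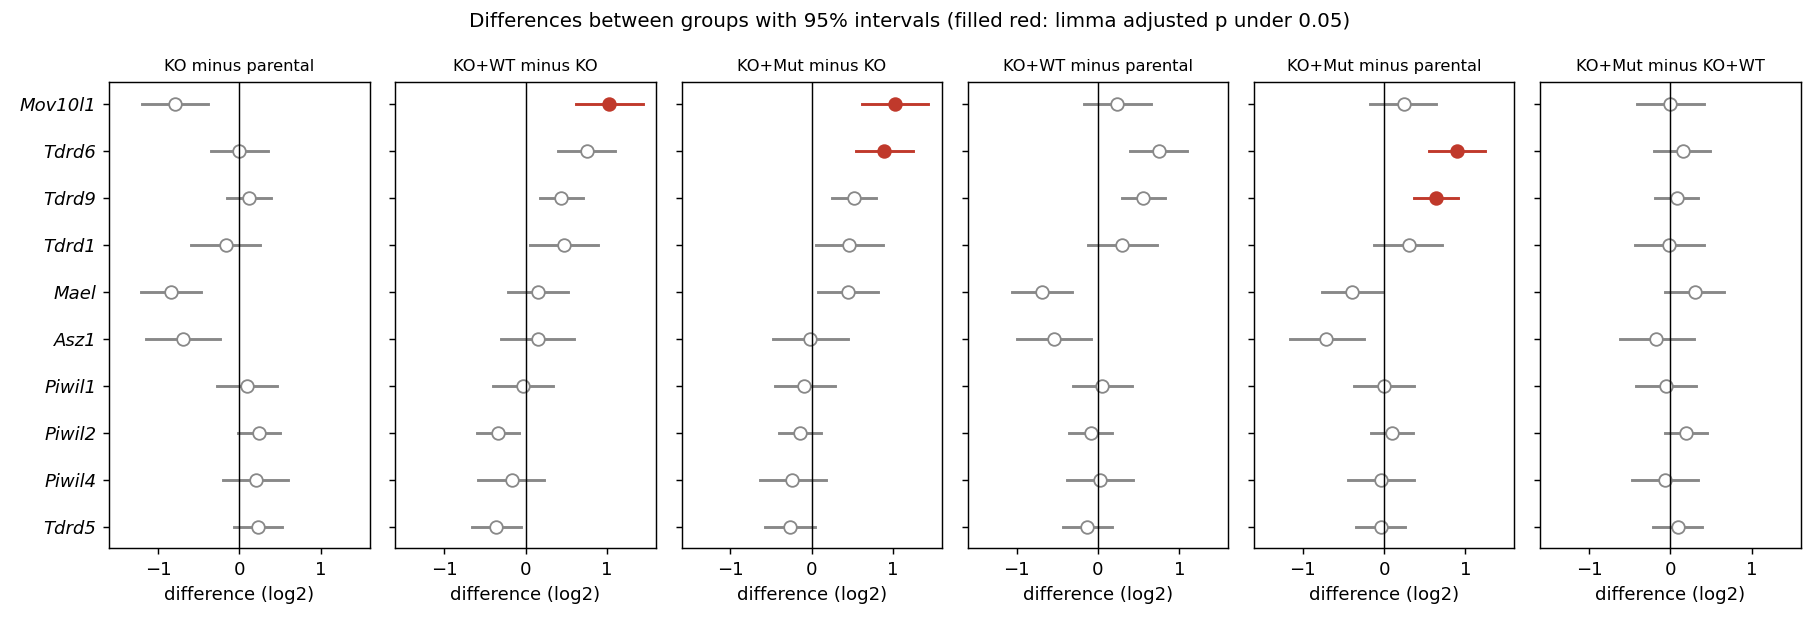
Log2 differences (x axis) of the 10 genes (rows) in the 6 comparisons (panels), each with its 95% interval from limma; filled red points had an adjusted p under 0.05. Red points number 5: Mov10l1 for each add-back over KO cells, Tdrd6 for the mutant over KO and over parental cells, and Tdrd9 for the mutant over parental cells; the right panel, mutant against wild-type, holds none.

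The comparison of the mutant with the wild-type add-back, both transfected and sorted, asked whether the ability of Dppa2 and Dppa4 to carry SUMO alters these transcripts. By limma 0 of 10 genes passed, with 0 of 10 at an unadjusted p under 0.05, and 0 of 22180 genes passed (0.0% called; 675 genes, 3.04%, at an unadjusted p under 0.05). For all 10 genes the arrays of both add-backs overlapped, while 3.07% of all genes were higher and 3.62% lower with the mutant without overlap. Mov10l1 differed by -0.00 (95% interval -0.41 to 0.41), Tdrd6 by 0.15 (-0.20 to 0.49) and Tdrd9 by 0.08 (-0.19 to 0.34). Mael had the highest difference at 0.30 (-0.07 to 0.66) and Asz1 the lowest at -0.17 (-0.62 to 0.29). Over the 10 genes the lowest end of an interval was -0.62 and the highest 0.66. With 3 arrays per group, a difference inside a gene's own interval was not excluded.

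Of a wider list of 27 further genes of the pathway, 26 were measured. In KO cells 2 fell: Ddx4, the germ cell helicase of nuage, by 1.41 (SE 0.16, limma adjusted p = 0.00203), and Tdrd12, a Tudor-domain helicase that partners PIWI proteins, by 0.93 (SE 0.17, adjusted p = 0.0489). The Ddx4 signal was 5.60, 5.55 and 5.38 in parental and 4.25, 3.96 and 4.08 in KO cells. It was 5.44, 5.43 and 5.17 under wild-type and 5.77, 5.59 and 5.14 under mutant add-back. All KO arrays of Ddx4 lay below all others, as for Mov10l1, and its calls were kept whichever array was left out. Relative to KO cells Ddx4 rose by 1.25 under the wild-type add-back and by 1.40 under the mutant (adjusted p = 0.00214 and 0.000646), and the add-backs differed from parental cells by -0.16 and -0.01. Tdrd12 gave 4.49, 4.53 and 4.87 in parental and 3.47, 3.91 and 3.71 in KO cells, then 4.11, 3.88 and 3.89 under wild-type and 4.27, 3.70 and 4.14 under mutant add-back. Its arrays in the add-backs overlapped those of KO cells and lay below those of parental cells, and its differences from KO were 0.26 and 0.34 (adjusted p = 0.585 and 0.446). The Tdrd12 call was lost with the replicate block (adjusted p = 0.0521), with median centring (0.0585), repeated quantile normalization (0.0652), trend and robust variances (0.051) or only the 6 arrays compared (0.125), and on leaving out parental replicate 1, 2 or 3 (0.105, 0.142 or 0.216) or KO replicate 1, 2 or 3 (0.205, 0.0803 or 0.14).

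With add-back 1 gene of the wider list fell. Gtsf1l, a relative of the PIWI cofactor gene Gtsf1, gave 5.77, 5.67 and 5.54 in parental and 5.83, 5.78 and 5.64 in KO cells. It gave 4.98, 5.14 and 4.72 under wild-type and 5.28, 5.03 and 5.12 under mutant add-back, all below the other groups. Relative to KO cells Gtsf1l fell by 0.80 under the wild-type and by 0.61 under the mutant proteins (SE 0.13, limma adjusted p = 0.0122 and 0.0456), and by 0.71 with wild-type add-back relative to parental cells (adjusted p = 0.0329). The first call was lost without KO replicates 1 and 2 (0.0554 and 0.0613), and the second without KO replicates 1, 2 and 3 (0.147, 0.139 and 0.0782) and KO+Mut replicates 1, 2 and 3 (0.0674, 0.19 and 0.115). The third was lost on leaving out parental replicate 1, 2 or 3 (0.137, 0.13 or 0.0766) or KO+WT replicate 1 or 3 (0.0637 or 0.103). With only the 6 arrays compared in the fit, all 3 calls were lost (0.0873, 0.0871 and 0.16). Per comparison, 0 of 26 rose and 2 fell in KO cells, against 0.0361% and 0.203% of all genes. Under each add-back over KO 1 rose (Ddx4) and 1 fell (Gtsf1l). Of all genes, 0.73% rose and 0.0992% fell with wild-type add-back, and 1.12% rose and 0.153% fell with mutant add-back. Under wild-type add-back over parental cells 0 rose and 1 fell (Gtsf1l), against 0.32% and 0.23% of all genes. Neither the mutant over parental cells nor the mutant over the wild-type gave a call by limma among the 26. Of all genes 0.992% and 0.0% were called. At an unadjusted p under 0.05 there were 5 and 2 of the 26, against 11.5% and 3.04% of all genes. With the replicate block Gtsf1l passed for the mutant over parental cells (-0.52, adjusted p = 0.0292, against 0.104 without the block). Against parental cells the smallest p of an uncalled gene was that of Gtsf1 in KO (-0.48, adjusted p = 0.453) and under mutant add-back (-0.65, adjusted p = 0.0861), and that of Tdrd12 under wild-type add-back (-0.67, adjusted p = 0.133). Against KO cells it was that of the exonuclease gene Pnldc1 under wild-type (-0.41, adjusted p = 0.31) and of Tex15, a gene of piRNA-directed silencing, under mutant add-back (-0.44, adjusted p = 0.245). Between the add-backs the germ cell genes Nanos3 (-0.57) and Nanos2 (-0.46) had the smallest p, both with adjusted p = 1. The median difference of the 26 genes lay between -0.04 and 0.07 in the 6 comparisons.

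Somatic relatives of the members were read for comparison. The helicase gene Mov10, the relative of Mov10l1 used in somatic cells, gave 8.28, 8.41 and 8.37 in parental and 8.11, 8.06 and 8.19 in KO cells, then 7.85, 7.88 and 7.92 under wild-type and 7.72, 7.66 and 7.76 under mutant add-back. The arrays of each group lay below those of the group before it. Mov10 stood 0.64 lower with mutant add-back than in parental cells (-0.64, SE 0.10, limma adjusted p = 0.00676), a call kept whichever array of those groups was left out. The differences from KO cells were -0.24 under wild-type and -0.41 under mutant add-back (adjusted p = 0.359 and 0.0768), the latter with adjusted p from 0.028 (replicate block) to 0.124 (repeated quantile normalization) over the alternatives fitted on all 12 arrays and 0.225 with only the 6 arrays compared. The Argonaute genes Ago1, Ago2, Ago3 and Ago4, which bind microRNAs in the way PIWI proteins bind piRNAs, passed in none of the 6 comparisons.

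The genes whose profiles over the 12 arrays lay nearest to those of the called members were taken by root-mean-square distance of mean-centred signals. For Mov10l1 they were the protein kinase C gene Prkcb (0.16), Dmrtb1, a DM-domain transcription factor gene of male germ cells (0.18), and Epb41l3, a membrane skeleton gene (0.19). For Tdrd6 they were the kinase gene Stk32c (0.14), the cell-cycle inhibitor gene Cdkn2c (0.17) and the scaffold gene Lin7a (0.17). Dmrtb1 differed by -0.84 in KO cells and by 1.15 (wild-type) and 1.25 (mutant) under add-back, and Stk32c by 0.11, 0.78 and 0.78. These genes were chosen for their likeness, and the values are a description.

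**Figure D3:**
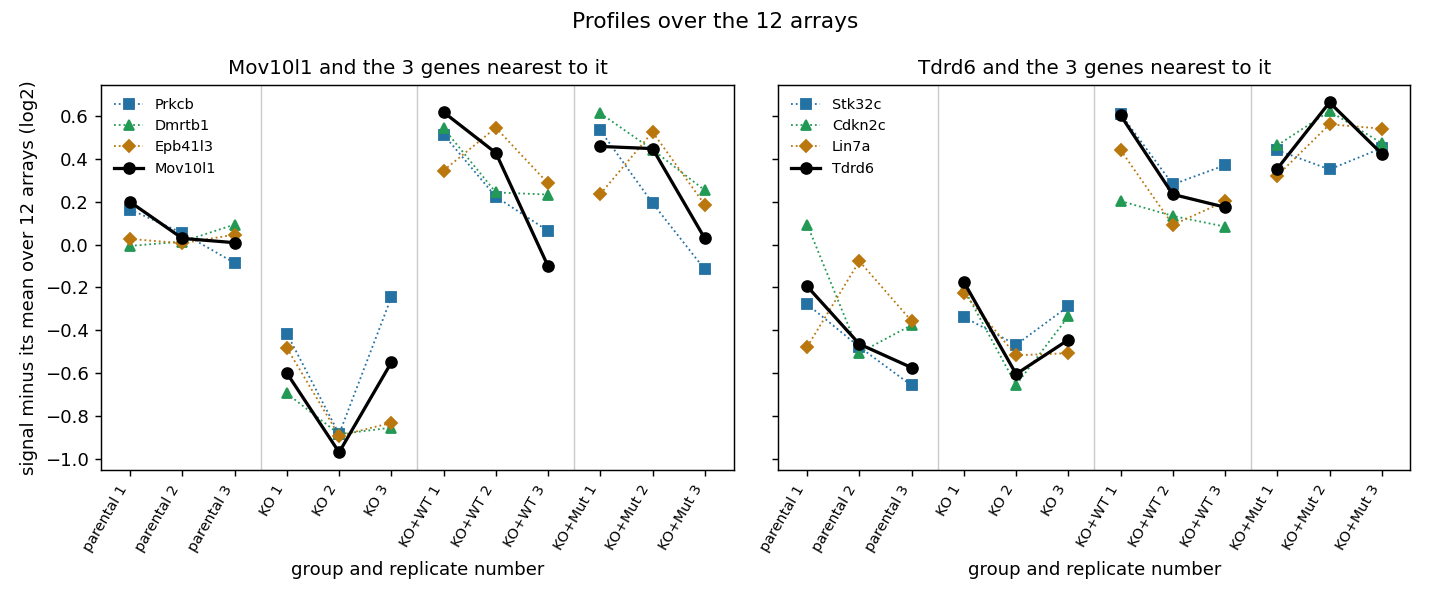
Signal minus its mean over the 12 arrays (log2, y axis) for Mov10l1 (left) and Tdrd6 (right), in black, and for the 3 genes with the nearest profiles, in colour, by group and replicate number (x axis); lines join the points of a gene within a group and show no order. Mov10l1 and its neighbours are lowest on the KO arrays, and Tdrd6, Stk32c and Lin7a are higher on all add-back than on all other arrays, while Cdkn2c on parental replicate 1 reaches its KO+WT arrays.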

How the data were processed

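Transcript signals of 12 mouse stem cell samples were read from the values table of the series, with groups and replicate numbers from the sample titles. The authors deposited 1 log2 signal for each probe set on each array; per the submitters' processing notes the authors used the Transcriptome Analysis Console. How background was corrected and probes were summarized, the software version and the genome build are not stated in those sources, and the log2 scale was inferred from the range of the values. Of 41345 probe sets, 23521 had 1 gene symbol, 1814 several and 16010 none in GEO's annotation. A single-symbol probe set stood for its gene, and of several the one with the highest mean was used.

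With 1 mean per group over all 12 arrays, differences were tested two-sided in limma 3.58.1 (R 4.3.3; functions lmFit, eBayes), with Benjamini-Hochberg adjustment over the 22180 genes of each of 6 comparisons and a threshold of 0.05. The number of arrays limits the precision: the median 95% half-width of a difference was 0.344 over all genes. The fit was tested on simulated data with noise drawn independently for each array. That simulation held no shared deviation of same-numbered arrays, which is described below, and so does not cover it. The members, lists and tests were chosen with earlier results of these data known. The text names the 10 members, Dppa2 and Dppa4, genes of the wider list that passed or had the 3 smallest p in a comparison, and the 3 nearest profiles of each member called in the first 4 comparisons. Same-numbered arrays deviated together for KO against parental cells (correlations of 0.36, 0.15 and 0.42), for KO+Mut against KO+WT (0.4, 0.21 and 0.47), for KO+WT against parental (0.33, 0.15 and 0.31) and for KO+Mut against parental cells (0.33, 0.13 and 0.36). Against KO cells the arrays of replicate 2 did not deviate together (0.06 for KO+WT and 0.08 for KO+Mut). The labels do not say what the number stands for. The main fit therefore took no arrays as pairs, and the replicate block was fitted as an alternative. The alternatives were centring each array on its median, repeated quantile normalization, the replicate block, a filter on genes below percentile 25 of mean signal, trend and robust variances, the 6 arrays compared, the mean of probe sets, array weights and leaving out each array. Promoters came from RefSeq (GRCm38.p6). Python 3.11.15, pandas 2.3.3 and matplotlib 3.10.9 made tables and figures.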

Additional observations from a re-analysis of the deposited data

How the results depend on the processing

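Repeated quantile normalization, median centring, and trend and robust variances kept all 5 calls of the members. The mean of probe sets kept them too, but each member had 1 probe set, so its signals could not change. The fits of 6 arrays lost Mov10l1 for wild-type add-back over KO (0 of 10 then passed) and Tdrd9 for the mutant over parental cells, where Asz1 passed instead (-0.71, adjusted p = 0.0437). Calls among all genes went from 184 to 75 and from 220 to 186 in those fits. For KO against parental cells 1 member passed with the replicate block (Mael) and 2 with array weights (Mael and Mov10l1). Of all genes 137 and 139 passed in those fits, against 53 in the main fit. For wild-type add-back over KO 3 passed with the replicate block (Mov10l1, Tdrd6 and Tdrd9), and 2 without genes of low signal and with array weights (Mov10l1 and Tdrd6). Calls among all genes grew as well, from 184 to 494 with the block, 229 without genes of low signal and 247 with array weights. For wild-type add-back over parental cells 2 passed with the block, where calls among all genes grew from 122 to 458. Leaving out each array gave 0 to 1 member for wild-type and 0 to 2 for mutant add-back over KO, and 0 to 1 for mutant add-back over parental cells, against 1, 2 and 2. For the mutant over KO, Tdrd9 also passed with the block (adjusted p = 0.0163), with array weights (0.0334) and without genes of low signal (0.0466). Calls among all genes were 716, 528 and 322 in those fits, against 282 in the main fit. The block changed no other call of a member. The number of arrays limits the precision, and the low signals of Tdrd6, Tdrd9 and Asz1 limit their differences. Asz1 could not be fitted without genes of low signal, since it is among them.

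Differences that changed sign were all under the threshold in every fit. They were those of Piwil1 from parental cells for KO+WT (-0.01 with repeated quantile normalization, -0.00 with median centring) and KO+Mut (-0.06 with both), of Piwil4 for KO+WT (-0.03 with median centring) and of Tdrd6 for KO (-0.05 with array weights). Leaving out each array gave, for Piwil1, -0.06 to 0.23 (KO from parental), -0.11 to 0.10 (KO+WT from KO), -0.16 to 0.05 (KO+Mut from KO), -0.18 to 0.01 (between add-backs), and -0.10 to 0.19 and -0.15 to 0.14 (add-backs from parental). For Piwil4 it gave -0.17 to 0.06 between add-backs, and -0.08 to 0.13 and -0.14 to 0.09 from parental cells. Between the add-backs it gave -0.26 to 0.14 for Tdrd1, -0.02 to 0.18 for Tdrd5, -0.02 to 0.16 for Tdrd9, -0.21 to 0.15 for Mov10l1, -0.37 to 0.03 for Asz1 and -0.03 to 0.25 for Dppa2. Other ranges were -0.15 to 0.05 for Tdrd5 (KO+Mut from parental), -0.11 to 0.11 for Tdrd6 (KO from parental), -0.02 to 0.36 for Mael and -0.07 to 0.35 for Asz1 (KO+WT from KO), and -0.24 to 0.12 for Asz1 (KO+Mut from KO). The cause was not tested.

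Among all genes the calls for KO against parental cells, wild-type and mutant add-back over KO, and wild-type and mutant add-back over parental cells were 53, 184, 282, 122 and 220. They were 137, 494, 716, 458 and 695 with the replicate block. Array weights gave 139 for KO against parental cells, 528 for mutant add-back over KO, 185 for wild-type and 455 for mutant add-back over parental cells. Fits of 6 arrays gave 27 for KO against parental cells. They gave 75 for wild-type and 207 for mutant add-back over KO. Over parental cells they gave 52 for wild-type and 186 for mutant add-back. Leaving out each array gave 19 to 31, 86 to 164, 119 to 207, 51 to 131 and 104 to 159.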
